A study of Mus musculus with 6 samples.

Results

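Sub-cluster 10 is a group of 332 astroglial cells from preparations of neonatal striatum, defined by the authors when they re-clustered the astroglial cells of their single-cell data, and its members were taken here as the cells that the deposited annotation gives that number. They made up 332 of the 8874 astroglial cells found at postnatal day 3 (P3), and of the 14373 annotated cells of the whole series. All 332 came from the 3 P3 libraries, with 35 cells in replicate 1, 57 in replicate 2 and 240 in replicate 3, so replicate 3 supplied most of them. The series compared striatal cells of wild-type male C57BL/6 mice (C57BL/6Jax in the methods) at P3 and at 3 months of age (3m), with 3 libraries per age. The striatum was dissected without the subventricular zone, according to the methods, and its cells were enriched by magnetic selection for ACSA2, which astrocytes carry on their surface. Each preparation pooled several animals, and values from the 3 libraries therefore describe 3 pools. Whether these cells came from the striatum or from an adjoining region carried along in the dissection, a possibility that the study raises, was not tested. The comparison made here is between sub-cluster 10 and the 8542 other P3 astroglial cells of the same libraries, and it asks what sets these cells apart from their neighbours.

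Astrocytes arise from radial glia, the stem cells that line the embryonic ventricles, and the forebrain territory in which a radial glial cell sits is marked by transcription factors such as *Pax6* and *Emx1* in the cortical wall or *Gsx2* and *Six3* in the ventral forebrain. Neonatal astroglia share many genes with radial glia, among them *Fabp7*, *Slc1a3*, *Sox9* and *Vim*, and they still divide locally. Some radial glia persist after birth as stem cells of the forebrain, and *Hopx* and *Tfap2c* are known as markers of radial glia of the outer cortical zone.

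The library sums behind the values were small for sub-cluster 10, at 286303, 274005 and 1094940 UMIs (unique molecular identifiers, 1 per captured transcript) in replicates 1 to 3, against 22040801 to 30343135 in the other astroglia. Levels are in CPM, UMIs per 1000000 of the same sum, so that 1 UMI was worth 3.49, 3.65 and 0.913 CPM in sub-cluster 10. Ratios are log2 ratios of CPM + 10 within each library (sub-cluster 10 over the other cells), given as mean ± SD over 3 libraries, and they understate the difference of genes under about 10 CPM. A gene was measured when the 6 sums averaged at least 20 CPM, and it was counted as higher or lower when the ratio reached 2-fold in the same direction in each of the 3 libraries. The authors made the clusters from these same expression values, so every level and count that sets sub-cluster 10 against other cells is a description and carries no test. As a second comparator, sub-clusters 3, 4, 5, 12 and 15 alone were used, which the study places with sub-cluster 10 on side branches of its trajectory. The study found that these groups clustered with non-telencephalic astrocytes of a published atlas, and proposes that they may come from adjacent regions. By the likeness of ratios given below, sub-clusters 5, 3 and 15 were most like sub-cluster 10. Sub-clusters 4 and 12 were less like it than 0 and 1.

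Of 6143 measured genes, 148 (2.41%) were counted as higher in sub-cluster 10 and 152 (2.47%) as lower. The median ratio over all measured genes was 0.07. The higher genes were led by *Cntnap2*, *Gng3*, *Hopx* and *Uaca*, and the lower genes by *Gatm*, *Basp1* and *Ube2c*. In 63 of the 148 higher genes the other astroglia averaged under 20 CPM, and in 90 of the 152 lower genes sub-cluster 10 did. Such genes passed the filter through the population in which they were high, so they had to differ. With TMM scaling, which moved the median ratio to -0.09, the counts were 113 and 191, and higher genes made up 37.2% of the genes counted instead of 49.3%.

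**Figure D1:**
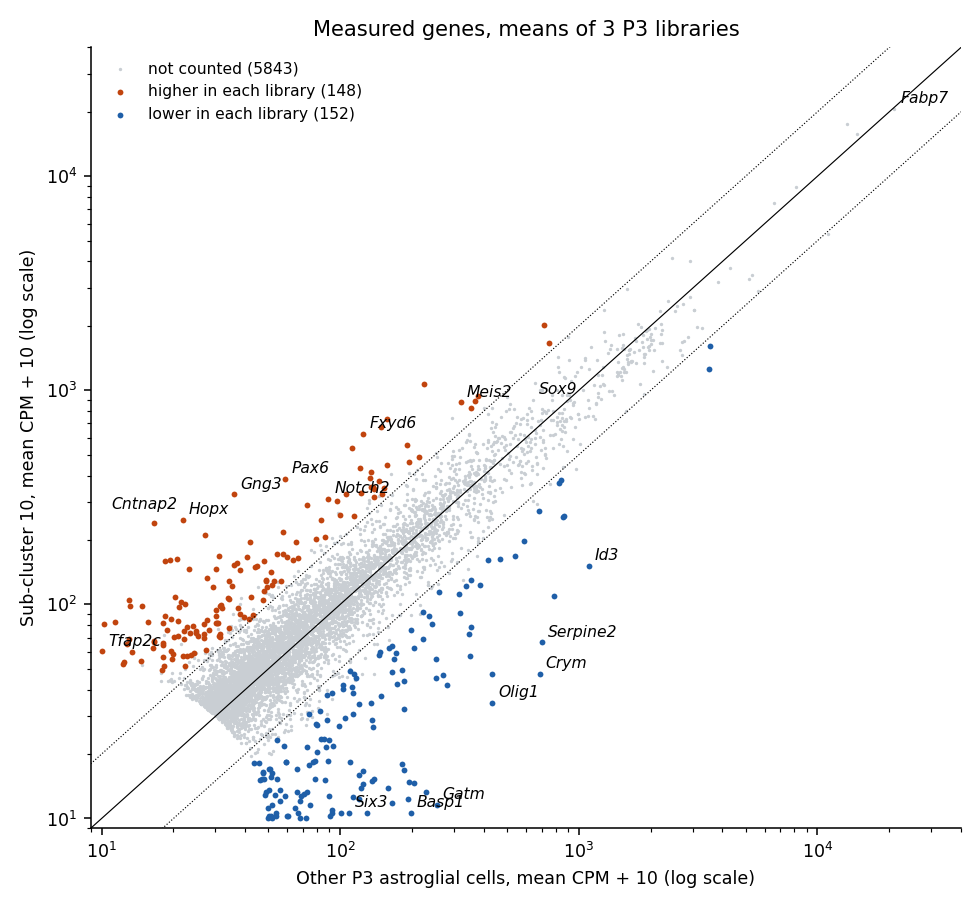
Mean CPM + 10 of 6143 measured genes in the other P3 astroglial cells (horizontal, log scale) and in sub-cluster 10 (vertical, log scale), means of 3 P3 libraries, with dotted lines at 2-fold. The 148 genes counted as higher (orange) and 152 as lower (blue) leave the diagonal on either side, while *Fabp7* lies on it.

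Promoter sequence is shown for 3 transcription regulators among the leading genes, *Hopx*, *Pax6* and *Dmrta2*. The reason is that *Tfap2c*, another leading gene, encodes AP-2 gamma, a factor known to bind the palindrome GCCNNNGGC, and these 3 promoters hold those letters. The 300-base windows around annotated starts are from RefSeq (GRCm38.p6, the assembly of the mm10 build that the authors used), written 5′ to 3′ on the gene's own strand with the palindrome in capitals.

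Hopx (chr5:77115074-77115373, minus strand): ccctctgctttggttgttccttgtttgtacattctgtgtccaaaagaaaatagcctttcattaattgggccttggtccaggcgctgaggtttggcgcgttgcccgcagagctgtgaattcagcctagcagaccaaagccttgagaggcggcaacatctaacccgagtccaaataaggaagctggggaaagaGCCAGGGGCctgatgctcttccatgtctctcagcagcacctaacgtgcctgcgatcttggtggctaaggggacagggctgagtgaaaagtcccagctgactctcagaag
Pax6 (chr2:105668646-105668945, plus strand): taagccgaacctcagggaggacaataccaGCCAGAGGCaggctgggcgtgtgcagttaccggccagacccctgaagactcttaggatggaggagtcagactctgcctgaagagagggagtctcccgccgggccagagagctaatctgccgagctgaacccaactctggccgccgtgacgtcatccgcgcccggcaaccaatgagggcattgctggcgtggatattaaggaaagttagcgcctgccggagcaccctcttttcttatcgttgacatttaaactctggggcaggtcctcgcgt
Dmrta2 (chr4:109977775-109978074, plus strand): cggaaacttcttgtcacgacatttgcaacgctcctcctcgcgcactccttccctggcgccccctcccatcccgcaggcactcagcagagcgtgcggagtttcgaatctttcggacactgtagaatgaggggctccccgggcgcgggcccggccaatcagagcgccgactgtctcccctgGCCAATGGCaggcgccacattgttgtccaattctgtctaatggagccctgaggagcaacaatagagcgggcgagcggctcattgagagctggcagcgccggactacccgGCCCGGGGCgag

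The palindrome reads the same on both strands, so each match was counted once, and it occurred 2 times in the *Dmrta2* window and 1 time in each of the others shown. Of the 20 leading genes, 19 had at least 1 window in the RefSeq table, and 6 of these 19 genes (*Hopx*, *Pax6*, *Dmrta2*, *Ecrg4*, *Gng3* and *Plagl1*) had the palindrome in at least 1 window. Among all 27025 genes of the table the share was 18.5%. Counted by window, 7 of 26 windows of the leading genes held it, against 16.6% of 32851. *Hopx* had a further window with 2 matches and *Pax6* a further one with none, and the window shown is the most upstream one that holds the letters. A match of letters is not a bound site.

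*Sox9*, a transcription factor of astroglia, is the marker of the label. The study picked the clusters to re-cluster by *Sox9* and other astrocyte markers. Its presence here, and its rarity in cells left out, therefore follow from that choice and cannot check the label. *Sox9* stood at 817, 657 and 1202 CPM in sub-cluster 10 and at 525, 503 and 879 CPM in the other astroglia of the same libraries (ratio 0.48 ± 0.13). It was thus above the pool of its neighbours in every library but under the 2-fold line. By sub-cluster, its mean of 892 CPM lay within the range of the other P3 sub-clusters, 355 to 1232 CPM. Sub-clusters 5 and 3 averaged 945 and 917 CPM. When each cell was thinned to 2000 UMIs, 62.9%, 60.7% and 85.5% of the cells of sub-cluster 10 in replicates 1 to 3 had a *Sox9* UMI, against 62.9%, 60.5% and 75.9% of other astroglia, so the share was above its neighbours in replicate 3 only. It was 5.58% in P3 endothelial and mural cells (clusters END_7 and PER_6), which should lack the gene. Unthinned and over all libraries, the shares in sub-cluster 10, the other astroglia and the endothelial and mural cells were 95.2%, 90.4% and 30.3% at median depths of 4737.5, 7488 and 11033 UMIs per cell. *Fabp7*, the brain fatty acid binding protein, was the same in both populations, at 20066, 23912 and 17930 against 20830, 24142 and 18012 CPM.

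All 24 genes of the astroglial identity list were measured, and 1 was counted as higher, 5 as lower and 18 as neither, with a median ratio of -0.47. Against sub-clusters 3, 4, 5, 12 and 15 alone 1 of 23 was counted as lower and none as higher, and with a pseudocount of 50 CPM 2 of 24 were lower. The glutamate transporter *Slc1a3* was close to its level elsewhere (ratio -0.26 ± 0.09), and the aldolase *Aldoc* was above it (0.97 ± 0.07, not 2-fold in each library). The members counted as lower included genes of the coupled, end-foot bearing astrocyte. The gap junction protein *Gja1* stood at 154, 128 and 174 CPM against 424, 349 and 451. The water channel *Aqp4* stood at 122, 98.5 and 141 CPM against 434, 286 and 310, and the calcium-binding protein *S100b* at 10.5, 3.65 and 9.13 CPM against 54.4, 71.9 and 65.7. *Fgfr3*, a receptor for fibroblast growth factors, was also lower (ratio -1.46 ± 0.13), as was *Id3*, described with the BMP targets. In *Gja1*, *Aqp4*, *S100b* and *Fgfr3* the lowest library of the other astroglia was above the highest library of sub-cluster 10. The rule by which they were counted favours such a separation. The ratio of *Aqp4* was 0.00788 against sub-clusters 3, 4, 5, 12 and 15 alone. The stem and reactive filament gene *Gfap* was not counted, with 66.4, 117 and 260 CPM against 37.8, 54.2 and 125.

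Most endothelial and microglial markers were at 0 in sub-cluster 10, while neuronal and mural markers were present at low levels. Low genes reach 0 more readily in its smaller sums, and the zeros of the comparator are not given here. The summed level of the 10 endothelial markers was 13.7 to 18.2 CPM over the 3 libraries (18.8 to 42.2 in the other astroglia), with 7 of 10 at 0. The 12 microglial markers summed to 29.2 to 59.4 CPM (18.1 to 26.3), above the other astroglia in every library, with 9 of 12 at 0. Neuronal markers summed to 390 to 517 CPM (367 to 451), and 7 of 20, among them *Syt1*, *Gad1* and *Slc17a6*, were at 0. *Celf4* and *Elavl3*, RNA-binding proteins of neurons, were the neuronal markers counted as higher (ratios 1.61 ± 0.37 and 1.29 ± 0.13). Mural markers summed to 273 to 318 CPM (113 to 210), with 3 of 10 at 0, and of these *Myl9*, a myosin light chain, was counted as higher (1.46 ± 0.27), though its ratio was -0.10 against sub-clusters 3, 4, 5, 12 and 15 alone. *Pdgfrb* stood at 143, 73.0 and 53.9 CPM against 35.3, 24.9 and 24.2, while *Vtn* and *Acta2* averaged under 20 CPM. The part of these markers in the results below was not tested. Cells over 2 times the median depth of all astroglia of their library, where doublets would be sought, made up 0.904% of sub-cluster 10 (3 of 332 cells) and 14.7% of the other astroglia. Sub-cluster 10 was shallower, with median UMIs 0.583 to 0.790 times those of the other cells, so a pair of its cells could stay under that cut. These shares therefore cannot say how many doublets it held.

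Sub-cluster 10 was small in every preparation. It held 1.76% of the P3 astroglial cells of replicate 1 (Wilson 95% interval 1.27 to 2.44), 1.84% in replicate 2 (1.42 to 2.37) and 6.34% in replicate 3 (5.61 to 7.16), a mean of 3.31 ± 2.62% (SD, n = 3). Replicate 3 set this mean, which was 1.80% without it. The intervals cover counting error only. Of the 332 cells, 324 came from cluster AST_P3_11 of the authors' clustering of all cells, which sent 86 of its other cells to sub-cluster 5. Only 3 of the 332 cells carried the authors' pseudotime score, against 5097 of the 8542 other cells, and 2 had a barcode that another library also held.

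These cells were shallower than their neighbours and held less mitochondrial RNA. The median cell had 7688, 4715 and 4371.5 UMIs in sub-cluster 10 and 9728.5, 8094 and 5665.5 in the other astroglia of replicates 1 to 3. The ratio of medians was 0.790, 0.583 and 0.772, below 1 in 3 of 3 libraries (mean log2 ratio -0.50 ± 0.24, p = 0.25, exact sign-flip permutation test over 3 libraries, two-sided, the smallest p it can give). Mitochondrial UMIs made up 1.44%, 1.20% and 0.807% of the median cell, against 2.49%, 1.76% and 1.31%. Median genes per cell were 3001, 2070 and 2107, against 3298.5, 2798.5 and 2389.

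The leading genes of sub-cluster 10 came from several functional groups. The first held adhesion and membrane proteins. *Cntnap2*, a neurexin-like adhesion protein, stood at 133, 296 and 265 CPM, and at 0.907, 12.1 and 6.60 CPM in the other astroglia (ratio 3.85 ± 0.18). The lowest library of sub-cluster 10 was above the highest library of the other cells, a separation that the choice of leading genes by ratio favours. The protocadherin *Pcdh8* stood at 101, 212 and 142 CPM against 6.40, 10.3 and 11.2. *Fxyd6*, a regulator of the sodium pump, was the most abundant of the 20, at 590, 624 and 631 CPM against 102, 126 and 117 (2.33 ± 0.10). *Tmem132b*, a transmembrane protein, followed at a lower level (2.73 ± 0.14).

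Signalling and secreted proteins formed another group. *Gng3*, a gamma subunit of heterotrimeric G proteins known from neurons, stood at 339, 307 and 304 CPM against 24.4, 25.5 and 28.1 (ratio 3.18 ± 0.15). *Hgf*, the growth factor that binds the receptor Met, stood at 171, 219 and 212 CPM against 13.4, 16.9 and 21.1. The secreted peptide precursor *Ecrg4* stood at 115, 91.2 and 78.5 CPM against 1.09, 3.46 and 4.60, and *Hs3st1*, which sulfates heparan chains, at 87.3, 91.2 and 85.8 CPM against 1.59, 4.02 and 3.79. In each of these genes all 3 libraries of sub-cluster 10 were above all 3 of the comparator, which their choice by ratio favours. *Veph1*, named for its expression in the ventricular zone, had a ratio of 2.96 ± 0.37, and the calcium-dependent lipid-binding protein *Cpne4* one of 2.98 ± 0.12. *Cpne4* had 114 UMIs in sub-cluster 10 and 17 in the many more cells of the comparator. The remaining leading genes were the actin regulators *Gsn* (2.41 ± 0.45) and *Pls1* (2.30 ± 0.14), the oxygen-sensing hydroxylase *Egln3* (2.64 ± 0.22), *Uaca* (3.03 ± 0.61) and the imprinted zinc finger gene *Plagl1* (2.44 ± 0.48). Against sub-clusters 3, 4, 5, 12 and 15 alone, *Plagl1* (0.82) and the regulator *Fezf2* (1.33) were the leading genes no longer counted.

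Transcription regulators made up the rest of the 20. *Pax6*, a paired homeodomain factor of cortical radial glia, stood at 391, 383 and 355 CPM in sub-cluster 10 and at 53.4, 43.1 and 50.3 CPM elsewhere (ratio 2.72 ± 0.15). *Tfap2c* stood at 34.9, 47.4 and 68.5 CPM, with 98 UMIs in 332 cells, against 6 UMIs in 8542 other cells. *Dmrta2*, a doublesex-related factor of the cortical primordium, stood at 66.4, 73.0 and 77.6 CPM against 5.85, 4.65 and 6.30, and *Fezf2*, a zinc finger repressor of forebrain progenitors and deep-layer neurons, at 27.9, 65.7 and 72.2 CPM against 2.54, 2.01 and 3.62. *Hopx*, a small homeodomain protein that does not bind DNA, was uneven between libraries. It stood at 38.4 CPM in replicate 1 and at 318 and 356 CPM in replicates 2 and 3, against 8.12, 12.7 and 14.8. The *Hopx* ratio was 3.05 ± 1.41, and 3.87 without replicate 1, where 9 of 35 cells had a UMI, against 36 of 57 and 146 of 240. *Hopx* and *Fezf2* were not counted when the comparator's sub-clusters were weighted equally, nor, together with *Tfap2c* and *Gsn*, with a pseudocount of 50 CPM.

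**Figure D2:**
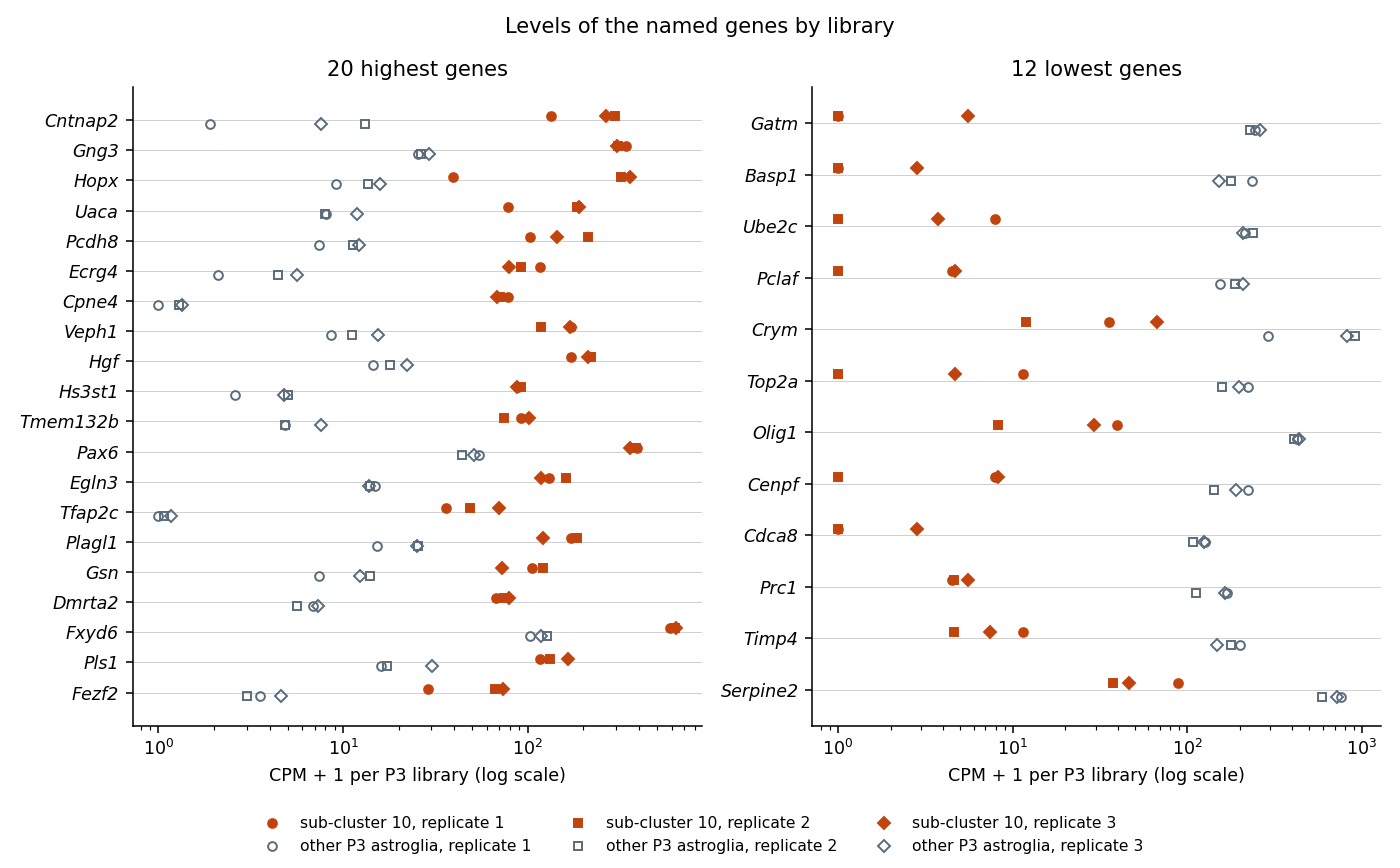
CPM + 1 (log scale) of the 20 highest genes (left) and the 12 lowest genes (right) in each P3 library, with filled orange points for sub-cluster 10 and open grey points for the other P3 astroglia, and with circle, square and diamond for replicates 1, 2 and 3. The populations do not overlap in any of these 32 genes, which follows largely from their choice by ratio. The share of such genes among all measured genes is not given here. The *Hopx* point of replicate 1 lies apart from its 2 fellows.

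As a set, the leading genes were spread over most cells rather than held by a few, while single genes were seen in 11.1% to 73.8% of thinned cells. Of 325 cells thinned to 2000 UMIs, 305 (93.8%) had a UMI of 3 or more of the 20 genes, with a median of 5 genes and a highest of 11. Of 7436 other astroglial cells, 297 (3.99%) reached 3 genes, and 54.6% had none. *Fxyd6* was seen in 73.8% of thinned cells of sub-cluster 10, *Pax6* in 46.5%, *Gng3* in 43.7%, *Cntnap2* in 38.5% and *Tfap2c* in 11.1%. In the other astroglia the same genes were seen in 18.2%, 9.10%, 4.88%, 1.88% and 0.0269% of cells, and in endothelial and mural cells in 3.67%, 0.0833%, 0.25%, 0.167% and 0 of 1200 cells. *Hopx* and *Uaca* were seen in 36.6% and 29.2% of thinned cells of sub-cluster 10 and in 8.17% and 31.8% of endothelial and mural cells, against 1.69% and 1.49% of the other astroglia. Thinning left out 7 cells of sub-cluster 10 and 1106 of the other astroglia that held fewer UMIs. Unthinned, *Pax6* was seen in 75.3% of the cells of sub-cluster 10 and in 28.6% of the other astroglia. Since these genes also helped to define the cluster, the shares describe its members and are no test.

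**Figure D3:**
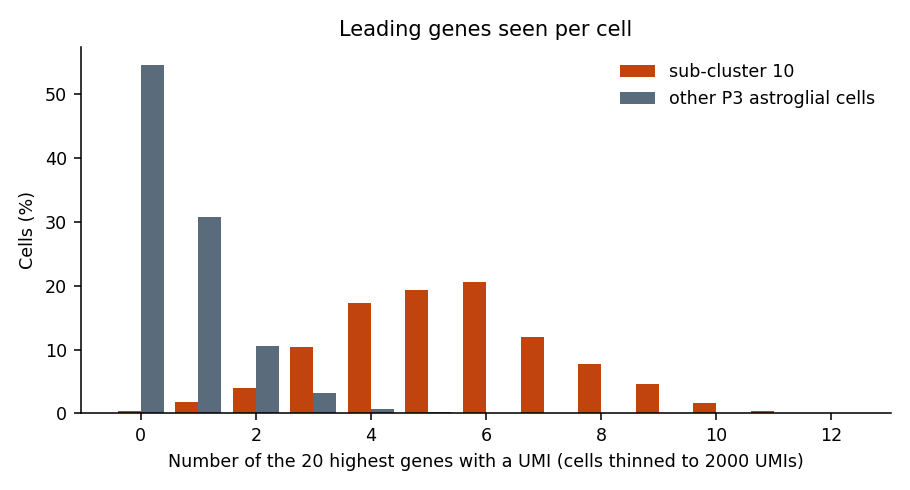
Number of the 20 highest genes with at least 1 UMI in a cell (horizontal) against the percentage of cells (vertical), for 325 cells of sub-cluster 10 (orange) and 7436 other P3 astroglial cells (grey), each thinned to 2000 UMIs. The median cell had 5 of the genes in sub-cluster 10 and 0 in the other astroglia.

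Across the 12 other P3 sub-clusters with at least 10 cells in a library, none reached the mean of sub-cluster 10 in any of the 20 genes. The choice of these genes by ratio over the pool of the same sub-clusters favours this. The share of such genes among all measured genes is not given here. The sub-cluster with the next highest level differed by gene. For *Cntnap2* it was sub-cluster 5, at 33.7 CPM against 231 CPM, and for *Pax6* sub-cluster 9, at 84.7 CPM against 377 CPM. For *Hopx* it was sub-cluster 11, at 99.6 CPM against 237 CPM, a gap smaller than the SD of 173 CPM among the libraries of sub-cluster 10. In replicate 1 *Hopx* stood at 38.4 CPM in sub-cluster 10, below every library of sub-cluster 11 (91.4 to 106 CPM). For *Tfap2c* no other sub-cluster exceeded 0.345 CPM. In the 3m astroglia, 10 of the 20 genes stayed under 10 CPM in every sub-cluster, among them *Cntnap2* (at most 1.04 CPM). *Hopx* reached 190 CPM in adult sub-cluster 7, *Pax6* 109 CPM in adult sub-cluster 14 and *Fezf2* 36.6 CPM in sub-cluster 14, which gave 1 library. The ages were not compared by a test here.

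**Figure D4:**
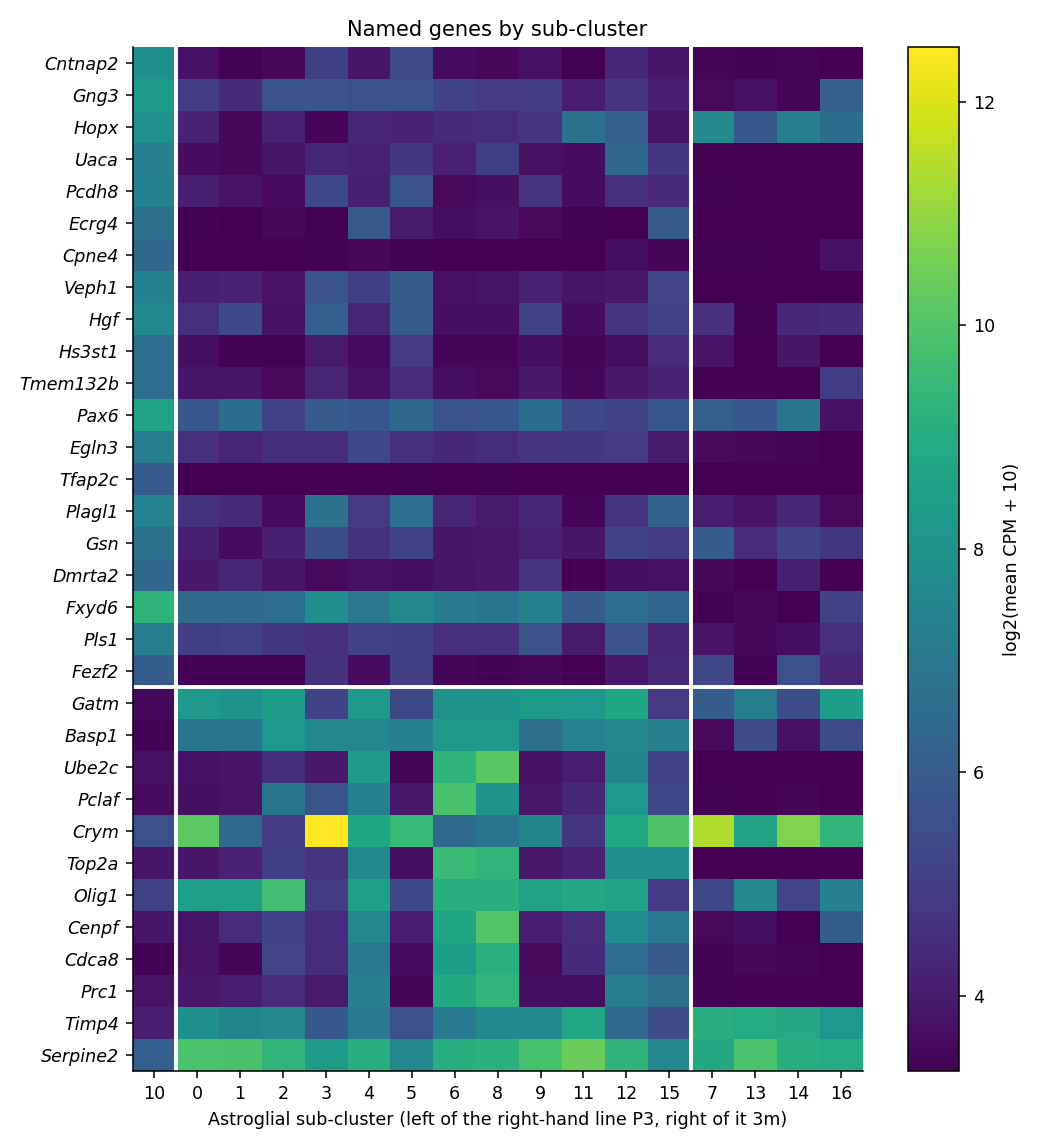
Mean level, log2(CPM + 10), of the 20 highest genes (above the horizontal line) and the 12 lowest genes (below it) in each astroglial sub-cluster, with sub-cluster 10 at the left, the other P3 sub-clusters in the middle and the 3m sub-clusters at the right. The upper genes are brightest in sub-cluster 10 among the P3 columns, which their choice by ratio favours. *Gatm* and *Olig1* are dim in sub-clusters 3, 5 and 15 as well as in 10. *Gatm* is dimmest in sub-cluster 10.

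The regulators of forebrain territory set sub-cluster 10 apart in both directions. Of 16 genes on the telencephalic patterning list 6 were measured, with *Pax6* and *Meis2* counted as higher, *Six3* as lower and 3 as neither (median ratio 1.05). *Six3*, a homeodomain factor of the ventral forebrain, had 0, 0 and 1.83 CPM (2 UMIs in all), against 98.9, 99.1 and 98.8 CPM, and was 81.8-fold lower by counts with a 95% counting interval of 22.7 to 676. Its level in the other P3 sub-clusters ran from 61.1 to 141 CPM, so sub-cluster 10 lay below all of them. *Six3os1*, the antisense RNA next to it, was chosen after its values were seen and had 1 UMI. *Meis2*, a homeodomain factor of the striatal primordium and other territories, stood at 824, 934 and 845 CPM against 319, 294 and 319. *Lhx2* and *Emx2*, known from the dorsal telencephalon, had ratios of 1.09 ± 0.19 and 0.88 ± 0.15 and were 2-fold in some libraries only.

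*Emx1*, a homeodomain factor of the cortical wall, was too low to be measured, with 6.99, 32.8 and 38.4 CPM (2, 9 and 42 UMIs) against 0.363, 0.791 and 0.639 CPM. It was seen in 5.85% of thinned cells of sub-cluster 10 and in 0.188% of other astroglia, and the sub-cluster next in order was 15, at 5.84 CPM. *Gsx2*, *Dlx2* and *Nkx2-1*, ventral forebrain factors, averaged under 20 CPM in both populations. A pair of nuclear receptors was chosen after their values were seen. *Nr2f2*, known from caudal and ventral territories, had 1 UMI against 36.7, 40.8 and 44.0 CPM, while its relative *Nr2f1* was at 328, 190 and 281 CPM against 183, 126 and 146. Of 31 diencephalic and midbrain genes 2 were measured (*Otx1* and *Tcf7l2*, neither counted) and 28 were at 0 in sub-cluster 10, *Otx2* among them. The 31 genes summed to 101 to 135 CPM in sub-cluster 10 and 122 to 152 CPM in the other astroglia. On the telencephalic list 6 of 16 genes were at 0 too. Low genes reach 0 more readily in the smaller sums of sub-cluster 10, and the zeros of the comparator are not given here. Of 22 hindbrain and spinal genes none was measured.

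The radial glia and neural stem cell list had 19 measured members, of which 4 were counted as higher, 1 as lower and 14 as neither (median ratio 0.32, against 0.07 for all measured genes). The 4 were *Hopx*, *Pax6*, *Tfap2c* and the matrix glycoprotein *Tnc*, which stood at 335, 307 and 276 CPM against 160, 108 and 118. The member counted as lower was *Egfr*, the receptor that marks activated stem cells, at 27.9, 3.65 and 24.7 CPM against 141, 105 and 131. *Sox2* and *Vim*, shared by all astroglia, had ratios of 0.35 ± 0.05 and 0.32 ± 0.21. Among the 14 measured Sox and Nfi factors none was counted in either direction. With TMM scaling, or without sub-clusters 6 and 8 in the comparator, 3 members of the radial glia list were counted as higher, and with a pseudocount of 50 CPM 1 was.

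Division genes were nearly absent. Of 16 measured G2 and M phase genes all 16 were counted as lower, with a median ratio of -2.89, and of 11 measured S phase genes 4 were (median -0.92). *Mki67*, a marker of cycling cells, had 2 UMIs in sub-cluster 10, against 118, 72.2 and 81.5 CPM elsewhere. *Top2a*, the topoisomerase that untangles replicated DNA, stood at 10.5, 0 and 3.65 CPM against 223, 157 and 199. A cell was called cycling when it had a UMI in at least 2 of *Mki67*, *Top2a* and *Cdk1* after thinning to 2000 UMIs. The share was 0 of 325 in sub-cluster 10, and 8.25%, 7.03% and 7.95% in the other astroglia of replicates 1 to 3. A count of 0 leaves room for 8.57%, 5.36% and 1.28% in those libraries, so in replicate 1 a share like that of the other cells was not detectable as different at this depth. The gene count rested on the comparator, since without sub-clusters 6 and 8 1 of the 20 G2 and M genes was measured and 0 were counted as lower. The study set its *Mki67*-expressing progenitors apart as sub-clusters 6 and 8 and lists sub-cluster 10 as *Mki67*-negative. That division favours a low share of cycling cells here, and the share without sub-clusters 6 and 8 is not given. On average *Top2a* stood at 4.71 CPM in sub-cluster 10, 2.51 CPM in sub-cluster 5, 16.4 CPM in sub-cluster 3 and 750 CPM in sub-cluster 6. Of 10 measured genes of cyclins and cell cycle exit, 2 were counted as higher. They were *Btg1*, an antiproliferative gene, at 402, 482 and 395 CPM against 127, 94.0 and 112, and *Gas1*, a growth arrest protein and Hedgehog co-receptor, at 304, 453 and 466 CPM against 125, 111 and 136.

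The 12 lowest genes comprised 6 of division (*Ube2c*, *Pclaf*, *Top2a*, *Cenpf*, *Cdca8* and *Prc1*) and 6 others, and the division genes were no longer counted once sub-clusters 6 and 8 were left out of the comparator. *Gatm*, an enzyme of creatine synthesis, had 0, 0 and 4.57 CPM against 243, 227 and 261 (ratio -4.48 ± 0.23). *Basp1*, a membrane protein of growing neurites, had 2 UMIs and was 141-fold lower by counts (95% counting interval 39.0 to 1162). *Olig1*, a helix-loop-helix factor of the oligodendrocyte lineage, stood at 38.4, 7.30 and 28.3 CPM against 428, 409 and 436. *Olig1* was not counted against sub-clusters 3, 4, 5, 12 and 15 alone (-0.65). *Olig2* was likewise lower, at 14.0, 0 and 1.83 CPM against 151, 134 and 100. *Timp4* and *Serpine2*, inhibitors of extracellular proteases, had ratios of -3.47 ± 0.28 and -3.47 ± 0.42. *Crym*, a thyroid hormone binding protein, stood at 34.9, 10.9 and 66.7 CPM against 289, 919 and 824, and its level elsewhere was uneven, up to 5727 CPM in sub-cluster 3.

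The Notch pathway had 10 measured members, 2 of them counted as higher and none as lower (median ratio 0.13). The receptor *Notch2* stood at 189, 328 and 384 CPM against 39.6, 80.9 and 117, and the ligand *Jag1* at 34.9, 65.7 and 63.9 CPM against 3.40, 7.68 and 12.9. The receptor *Notch1* and the targets *Hes1* and *Hes5* were counted in neither direction (ratios 0.32 ± 0.15, 0.08 ± 0.24 and -0.43 ± 0.15). Of 5 measured Hedgehog pathway genes the co-receptors *Gas1* and *Cdon* were counted as higher. *Cdon* stood at 48.9, 47.4 and 35.6 CPM against 2.27, 2.34 and 2.77, whereas the receptor and target *Ptch1* was below its neighbours without reaching 2-fold in each library (-0.77 ± 0.27).

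In the Wnt pathway 1 of 14 measured genes was counted as higher and 1 as lower. *Sfrp1*, a secreted Wnt antagonist, stood at 912, 602 and 662 CPM against 113, 143 and 184, and *Sp5*, a Wnt target, had 4 UMIs. The Id genes, targets of BMP signalling that block helix-loop-helix factors, parted ways. *Id3* stood at 87.3, 208 and 128 CPM against 1048, 1178 and 1054, and *Id1* and *Id2* were lower too (ratios -1.55 ± 0.28 and -2.17 ± 0.21). *Id4* was higher, at 451, 409 and 283 CPM against 122, 128 and 121. Of 9 measured BMP and TGF-beta genes these 4 were the counted ones. In the FGF and ERK list 4 of 12 were counted as lower, namely *Fgfr3*, *Egfr* and the ERK response genes *Dusp6* and *Etv4*, and none as higher (median ratio 0.13). Against sub-clusters 3, 4, 5, 12 and 15 alone, the ratio of *Id4* was -0.079 and none of the BMP, Notch and Wnt genes was counted. There 1 of 10 FGF and ERK genes was counted as higher and none as lower, and 1 of 5 Hedgehog genes as higher.

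Axon guidance genes were counted as higher in 5 of 12 measured members and as lower in none (median ratio 0.51). The ephrin receptor *Epha4* stood at 90.8, 131 and 134 CPM against 31.8, 19.1 and 21.8. The ephrins *Efnb1* and *Efnb2*, the receptor *Epha5* and the netrin family member *Ntn4* were the other 4 (ratios 1.65 ± 0.26, 1.51 ± 0.61, 1.19 ± 0.19 and 1.62 ± 0.27). Of 19 measured matrix and secreted genes 2 were counted as higher and 4 as lower. *Igfbp5*, which binds insulin-like growth factors, stood at 272, 255 and 319 CPM against 64.5, 49.2 and 74.6, while *Igfbp2*, of the same family, stood at 73.3, 83.9 and 141 CPM against 994, 763 and 573, though its ratio was 0.16 against sub-clusters 3, 4, 5, 12 and 15 alone. The proteoglycan *Bcan* and the link protein *Hapln1*, parts of the perineuronal matrix, were lower (ratios -1.78 ± 0.36 and -2.58 ± 0.51). With TMM scaling, or without sub-clusters 6 and 8, 3 axon guidance genes were counted as higher, against sub-clusters 3, 4, 5, 12 and 15 1 was, and with a pseudocount of 50 CPM none of 12 was.

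**Figure D5:**
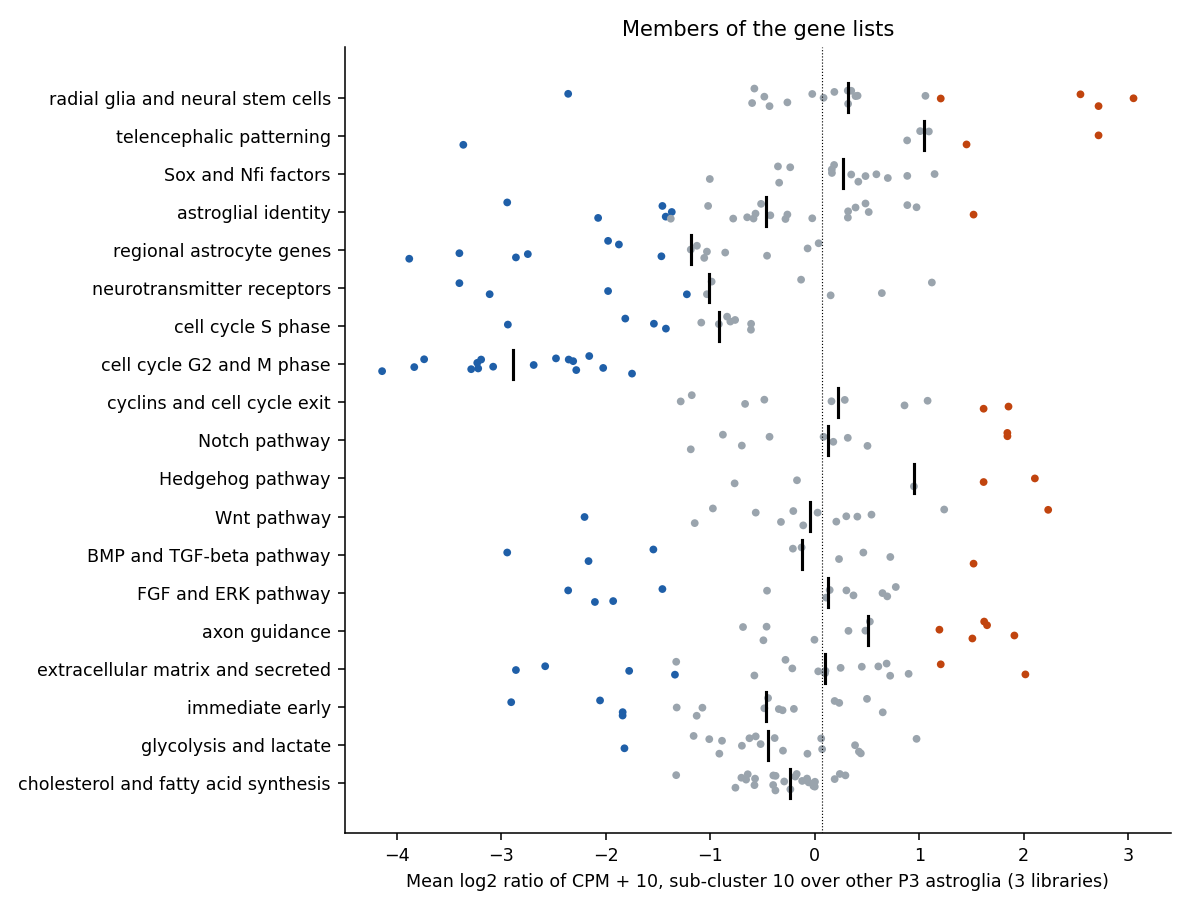
Mean log2 ratio of CPM + 10, sub-cluster 10 over the other P3 astroglia (horizontal), of each measured member of 19 gene lists (rows), with orange for members counted as higher, blue for lower and grey for neither. The black bar marks each list's median and the dotted line the median of all measured genes (0.07), and all 16 measured G2 and M phase genes lie to the left.

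Of 15 measured genes by which astrocytes of different regions differ 7 were counted as lower, 8 as neither and none as higher (median ratio -1.19). Angiotensinogen, *Agt*, had 0 UMIs in all 3 libraries against 65.9, 57.7 and 49.0 CPM, at least 29.4-fold lower against a floor of 3 UMIs over the group. The GABA transporter *Slc6a11* and the glycine transporter *Slc6a9* had ratios of -1.47 ± 0.03 and -1.88 ± 0.13. The metabotropic glutamate receptor *Grm5* stood at 17.5, 3.65 and 2.74 CPM against 216, 143 and 153, and *Gabbr2*, a subunit of the GABA-B receptor, had 1 UMI. Of 10 measured transmitter receptor genes 4 were counted as lower and 6 as neither. Against sub-clusters 3, 4, 5, 12 and 15 alone, 1 of 12 measured regional genes and 0 of 9 receptor genes were counted as lower.

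Metabolic lists held few counted genes, though their median ratios were below the 0.07 of all measured genes. None of 25 measured genes of cholesterol and fatty acid synthesis was counted in either direction (median ratio -0.23). Of 18 measured genes of glycolysis and lactate 1 was counted as lower, and the median ratio was -0.45. The counted gene was *Ldha*, the lactate dehydrogenase subunit of glycolytic tissue, at 69.9, 109 and 63.9 CPM against 345, 308 and 267. Immediate early genes, which respond to dissociation, differed more between libraries. *Fos* stood at 1781, 628 and 2814 CPM in sub-cluster 10 and at 1672, 1439 and 1999 CPM elsewhere, so its order changed with the library. *Junb* was lower in all 3, at 10.5, 32.8 and 98.6 CPM against 254, 374 and 387. In all, 4 of 16 measured immediate early genes were counted as lower and none as higher, and against sub-clusters 3, 4, 5, 12 and 15 alone none of 14 was counted. Of 12 measured heat shock genes 1 was counted as lower, and of 4 interferon response and 4 reactive astrocyte genes none was counted.

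By the likeness of their ratios over all measured genes, sub-clusters 5 (730 cells) and 3 (781 cells) were nearest to sub-cluster 10, and each was set against it in the same 3 libraries. Against sub-cluster 5, 54 of 6180 measured genes (0.874%) were counted as higher and 77 (1.25%) as lower. Against sub-cluster 3, 72 of 6131 (1.17%) were counted as higher and 113 (1.84%) as lower. Of the 20 leading genes, 17 were higher than in sub-cluster 5 and 18 higher than in sub-cluster 3 by the same rule, while 4 of the 12 lowest genes were lower than in each. These 4 were *Basp1*, *Crym*, *Timp4* and *Serpine2* in both comparisons. *Gatm* fell under the filter in both, so it could not be counted. It averaged 1.52 CPM in sub-cluster 10, 30.0 CPM in sub-cluster 5 and 27.1 CPM in sub-cluster 3. The division genes among the 12 averaged 1.03 to 6.26 CPM in sub-cluster 5, so they fell under the filter there too. *Olig1* was measured in both and not counted. The leading genes not counted were *Plagl1* and *Fezf2* in both, and *Pcdh8* against sub-cluster 5. These counts share the cells of sub-cluster 10 and are not independent of each other.

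Of 16 multiciliated and ependymal genes 7 were measured against each neighbour, with 7 counted as lower than in sub-cluster 5 and 6 as lower than in sub-cluster 3, where *Mia* was not. *Pifo* and *Cfap126*, genes of cilia, stood at 118, 107 and 101 CPM and at 75.4, 59.0 and 50.1 CPM in sub-cluster 5, and in sub-cluster 10 at 0, 0 and 7.31 CPM and at 3.49, 0 and 2.74 CPM. *Six3* stood at 163, 117 and 122 CPM in sub-cluster 5, and *Nkx6-2*, a homeodomain factor, at 50.3, 59.0 and 97.8 CPM against 0, 0 and 4.57 in sub-cluster 10. The growth cone protein *Gap43* stood at 112, 142 and 55.7 CPM in sub-cluster 10, at 0, 7.43 and 2.98 CPM in sub-cluster 5 and at 6.16, 3.09 and 3.62 CPM in sub-cluster 3. *Kitl*, the ligand of the receptor Kit, was chosen after its values were seen and stood at 105, 69.3 and 51.1 CPM against 0, 10.9 and 2.98 in sub-cluster 5. *Tnc* was higher than in either (ratios 2.27 ± 0.32 and 2.66 ± 0.47).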

How the data were processed

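Droplet libraries (10x, 3′ end) of single striatal cells from 3 P3 and 3 3m pools were used, grouped by the age in the sample labels. Raw UMI counts of 32285 genes were deposited, made by the authors with Cell Ranger on mm10. The deposited annotation gave cluster names, sub-cluster numbers and a pseudotime score, which has no unit and served only to count cells that carry it. The submitters' processing notes name Seurat 3.1.1. The stated filter, more than 500 genes and less than 10% mitochondrial UMIs, selected the same 14373 cells when repeated here. Clusters were not rebuilt, and doublets were not removed. In the sums of sub-cluster 10, 3 UMIs amounted to 10.5, 10.9 and 2.74 CPM, which sets the precision of low genes.

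UMIs were summed per library and population, since cells are not replicates. Some genes are not reported here. Scaling by TMM used edgeR 4.0.16 in R 4.3.3, and other steps Python 3.11.15. The counting rule was run on simulated sums in which only genes of at least 50 CPM in the comparator were changed. It therefore does not cover genes lower than that, and its outcome is not quoted here. Named genes are the 20 highest and 12 lowest by mean ratio among those counted, with at least 50 CPM in the higher population and without predicted, mitochondrial and ribosomal protein genes, members of 40 gene lists, and counted patterning factors. Any other gene was chosen after its values were seen. Members and lists were chosen with earlier results of these data known. Alternatives changed the pseudocount, the filter, the scaling, the comparator, the cells and the libraries. Genes that overlap or share reads with a copy or an antisense partner, such as *Six3* and *Six3os1*, are uncertain to the extent that the counting could split them. Nothing says whether the libraries came from separate litters, so their spread may be partly technical.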

Additional observations from a re-analysis of the deposited data

How the results depend on the processing

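No paired analysis was possible because the replicate numbers that the labels share run between the ages, and the ages were not compared by a test. Ratios between populations were themselves taken within each library. The counts of 148 higher and 152 lower genes moved by over 1.5 times in 4 settings. With a pseudocount of 50 CPM they were 47 and 67, and with a filter of at least 100 CPM 48 and 44, where 1701 genes were measured. Without a filter on low values 267 genes were lower. Against sub-clusters 3, 4, 5, 12 and 15 alone, 63 genes were higher, 52 of them among the 148, and of the 133 lower genes 25 were among the 152. Leaving out 1 replicate at a time gave 170 to 202 higher and 165 to 189 lower genes, a share of 1.80 to 4.09%, a log2 ratio of median UMIs of -0.58 to -0.36 and 0 cycling cells. Of 103 named genes over 16 settings, 1251 of 1648 ratios moved by less than their SD over libraries, 390 by more and 7 turned direction. These were *Tpx2* without sub-clusters 6 and 8 (0.022) and against sub-clusters 0, 1 and 2 (0.25), *Hmgb2* against 0, 1 and 2 (0.026), and, against sub-clusters 3, 4, 5, 12 and 15, *Aqp4* (0.00788), *Id4* (-0.079), *Igfbp2* (0.16) and *Myl9* (-0.10). The cause was not tested. The setting restricted to cells of cluster AST_P3_11, chosen after seeing the data, gave 153 and 159 genes.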

Other observations

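A few genes outside the lists, chosen after their values were seen, were abundant in sub-cluster 10. *Rlbp1*, a retinaldehyde-binding protein of Müller glia and astroglia, stood at 419, 577 and 579 CPM against 95.9, 98.3 and 111 in the other P3 astroglia. The neuronal reticulon *Rtn1* stood at 1816, 1920 and 2301 CPM against 596, 703 and 816, and the neurotrophin receptor *Ntrk2* at 1086, 708 and 1010 CPM against 390, 319 and 400. All 3 libraries of sub-cluster 10 lay above all 3 of the comparator in each of these genes, which were picked with these values known. *Thrsp*, a lipogenic gene responsive to thyroid hormone, stood at 45.4, 62.0 and 128 CPM against 7.40, 7.05 and 10.9, and in the adult astroglia it reached 188 CPM in sub-cluster 14. The fatty acid binding protein *Fabp5* was lower than in the other P3 astroglia, at 1359, 1485 and 912 CPM against 4140, 3735 and 2592, while its relative *Fabp7* was level between the populations.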
